A study of Homo sapiens with 4 samples.

Results

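NT2D1 and GCT27 were set against TCam-2 and GCT44, the 4 established human germ cell tumour cell lines of the series, on Affymetrix U133 Plus expression arrays. A gene was counted as a member when its lowest intensity in one pair of lines exceeded its highest in the other pair by at least 1 on the log2 scale, a 2-fold gap between the nearest lines. Of 14926 genes compared, 588 were members, 378 higher in NT2D1 and GCT27 and 210 higher in TCam-2 and GCT44. These are 3.94% of the genes compared in all, 2.53% in the first direction and 1.41% in the second. Without a minimum gap the pairs did not overlap for 17.4% of genes with NT2D1 and GCT27 above, and for 14.4% with TCam-2 and GCT44 above. The rule used the same values that are described here, and the pairs follow the level of SOX2, so counts and folds are descriptions with no test.

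By their labels NT2D1 is a teratoma line from a lung metastasis of a testicular tumour, GCT27 an embryocarcinoma (embryonal carcinoma) line, TCam-2 a seminoma line and GCT44 a yolk sac tumour line, and the last 3 come from the testis. NT2D1 is a clonal line that the field generally treats as embryonal carcinoma with neural potential. Each line was measured on 1 array, and the lines of a pair are different tumour subtypes and not replicates. All cultures held 10% fetal bovine serum and 1% penicillin and streptomycin. TCam-2 was grown in RPMI-1640 and the other lines in DMEM, so the medium differed inside a pair and did not separate the pairs. In such bulk cultures fewer cells of a type and less RNA per cell cannot be told apart.

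SOX2 is a transcription factor that binds DNA through an HMG box and works with OCT4 in the regulatory network of pluripotent cells, and it also marks neural progenitors. Embryonal carcinoma is regarded as the tumour counterpart of pluripotent embryonic cells. Seminoma resembles primordial germ cells, in which human SOX17 and PRDM1 act in place of SOX2, and PRDM1 represses somatic genes there. Yolk sac tumour resembles extraembryonic endoderm, whose cells depend on GATA factors.

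SOX2 and PRDM1, the markers of the pairs, are described first. The pairs follow the level of SOX2 and both genes are members, so their separation is no check of the pairs. SOX2 had intensities of 20575 in NT2D1 and 18309 in GCT27, against 391 in TCam-2 and 6.41 in GCT44. The gap between the nearest lines was 46.8-fold, and TCam-2 was low but above the floor of 76.4 units, the median of all values, below which intensities were not ordered. A further SOX2 probe set that was bright enough, and that the rule did not use, separated the pairs by 4.63 on the log2 scale. PRDM1 had 177 in NT2D1 and 93.1 in GCT27, against 2481 in TCam-2 and 1550 in GCT44. The gap between the nearest lines was 8.76-fold, lower in NT2D1 and GCT27, and another bright PRDM1 probe set gave a margin of 1.97 the same way. The pairs did not overlap for either marker, which the rule requires of every member. SOX17, the germ cell and endoderm factor, did not follow PRDM1. It had 10.4 in NT2D1 and 44.2 in GCT27, against 3819 in TCam-2 and 42.7 in GCT44, so it was bright in the seminoma line alone.

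Promoter sequences of 4 members are shown because SOX2 and its partner OCT4 bind short motifs, and a reader can see which of the searched letters lie just before these genes. They were taken from RefSeq (GRCh38.p14) by gene symbol, cover the 250 bases before the annotated gene start, and run 5′ to 3′ on the strand of the gene. They are the first members by margin in each direction that held a searched motif. Capitals mark matches on either strand to the SOX cores CATTGT and CTTTGT, the octamer core ATGCAAA, the TATA box TATAAA and the PRDM1 core GAAAGTG. SFRP2 lies at chr4:153789084-153789333, minus strand, SOX2 at chr3:181711675-181711924, plus strand, HAPLN1 at chr5:83720856-83721105, minus strand, and IL1R1 at chr2:102104354-102104603, plus strand.
SFRP2: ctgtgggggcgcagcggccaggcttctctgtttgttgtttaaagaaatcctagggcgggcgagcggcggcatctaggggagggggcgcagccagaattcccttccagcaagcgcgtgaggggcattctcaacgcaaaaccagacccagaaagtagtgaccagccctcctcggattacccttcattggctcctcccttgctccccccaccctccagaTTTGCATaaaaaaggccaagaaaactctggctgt
SOX2: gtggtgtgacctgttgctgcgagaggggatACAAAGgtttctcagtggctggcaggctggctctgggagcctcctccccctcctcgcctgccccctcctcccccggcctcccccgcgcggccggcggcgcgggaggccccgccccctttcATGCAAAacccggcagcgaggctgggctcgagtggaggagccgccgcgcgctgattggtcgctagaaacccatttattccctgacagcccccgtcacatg
HAPLN1: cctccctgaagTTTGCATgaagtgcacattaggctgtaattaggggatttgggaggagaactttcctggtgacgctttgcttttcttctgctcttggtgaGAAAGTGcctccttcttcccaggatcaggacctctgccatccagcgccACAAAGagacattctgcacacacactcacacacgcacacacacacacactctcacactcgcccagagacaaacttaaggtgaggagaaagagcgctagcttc
IL1R1: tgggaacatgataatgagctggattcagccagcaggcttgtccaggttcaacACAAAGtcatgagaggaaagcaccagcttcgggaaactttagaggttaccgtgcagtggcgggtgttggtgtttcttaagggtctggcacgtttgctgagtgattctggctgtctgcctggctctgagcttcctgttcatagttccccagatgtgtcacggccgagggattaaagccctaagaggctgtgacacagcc

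The SFRP2 window holds 1 octamer core and the SOX2 window holds 1 SOX core and 1 octamer core. Of the members higher in TCam-2 and GCT44, the HAPLN1 window holds a SOX core, an octamer core and a PRDM1 core, and the IL1R1 window holds a SOX core. The windows were picked because they held a searched motif, so motifs before genes of either direction were fixed by that choice. A match is a stretch of letters and not a binding site.

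The widest gap among genes with a probe set of their own belonged to PTPRZ1, a receptor tyrosine phosphatase of neural progenitors. It had 9518 in NT2D1 and 9367 in GCT27, against 37.9 in TCam-2 and 16.3 in GCT44. With both lower lines below the floor, the gap was at least 123-fold. SFRP2, a secreted modulator of WNT signalling, had 6124 in NT2D1 and 9777 in GCT27, against 3.86 in TCam-2 and 44.5 in GCT44, at least 80.1-fold. IGFBP2, an IGF-binding protein, had 4855 in NT2D1 and 4735 in GCT27, against 94.7 in TCam-2 and 4.51 in GCT44. PTPRZ1 and IGFBP2 had no other probe set, while the other SFRP2 probe set also met the rule.

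SOX2 came next by margin. DPYSL3, a collapsin response mediator protein of growing axons, had 3368 in NT2D1 and 4692 in GCT27, against 97.5 in TCam-2 and 28.7 in GCT44, 34.5-fold. SYTL2, an effector of vesicle trafficking, had 3098 in NT2D1 and 4468 in GCT27, against 106 in TCam-2 and 3.35 in GCT44. VAT1L (24.8-fold), OCIAD2 (at least 24.4-fold), ZNF512 (22.6-fold), the pseudogene ZNF826P (at least 21.8-fold), the ependymin-related gene EPDR1 (at least 21.2-fold) and PIPOX, an oxidase of lysine breakdown (19.4-fold), came next. The metalloproteinase inhibitor TIMP4 (at least 19.0-fold), the repulsive axon guidance protein DRAXIN (at least 15.8-fold) and the glycosyltransferase GALNT14 (at least 14.5-fold) complete the 15 widest gaps. DRAXIN had 1210 in NT2D1 and 1871 in GCT27, against 49.2 in TCam-2 and 4.25 in GCT44, and both of its other probe sets met the rule.

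In the other direction DSCR8, a gene of the Down syndrome critical region, had the widest gap. It had 20.2 in NT2D1 and 32.3 in GCT27, both below the floor, against 2658 in TCam-2 and 3628 in GCT44, a gap of at least 34.8-fold. Its only probe set can match several transcripts. SLC40A1, the iron exporter ferroportin, had 183 in NT2D1 and 69.7 in GCT27, against 3524 in TCam-2 and 8337 in GCT44, 19.2-fold. Its other bright probe set did not separate the pairs, with a margin of -0.04. HAPLN1, a link protein of hyaluronan matrix, had 219 in NT2D1 and 148 in GCT27, against 9034 in TCam-2 and 3678 in GCT44. All 3 of its other probe sets met the rule.

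The list went on with EPSTI1 (at least 14.9-fold), the membrane mucin MUC15 (at least 14.6-fold), TSPYL5 (at least 14.0-fold) and the interleukin 1 receptor IL1R1 (at least 12.5-fold). TBX3, a T-box factor of extraembryonic and mesodermal tissue, had 191 in NT2D1 and 55.7 in GCT27, against 2076 in TCam-2 and 5858 in GCT44, 10.9-fold. GATA6, a driver of extraembryonic endoderm, had 53.2 in NT2D1 and 13.7 in GCT27, against 780 in TCam-2 and 7451 in GCT44, at least 10.2-fold. The aminopeptidase ENPEP (at least 10.2-fold), PRDM1, the metalloproteinase ADAMTS18 (7.10-fold), CLIP4 (6.53-fold), the adhesion receptor ADGRD1 (6.33-fold) and the LIM homeodomain factor ISL1 (6.08-fold) complete the 15 widest gaps.

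**Figure D1:**
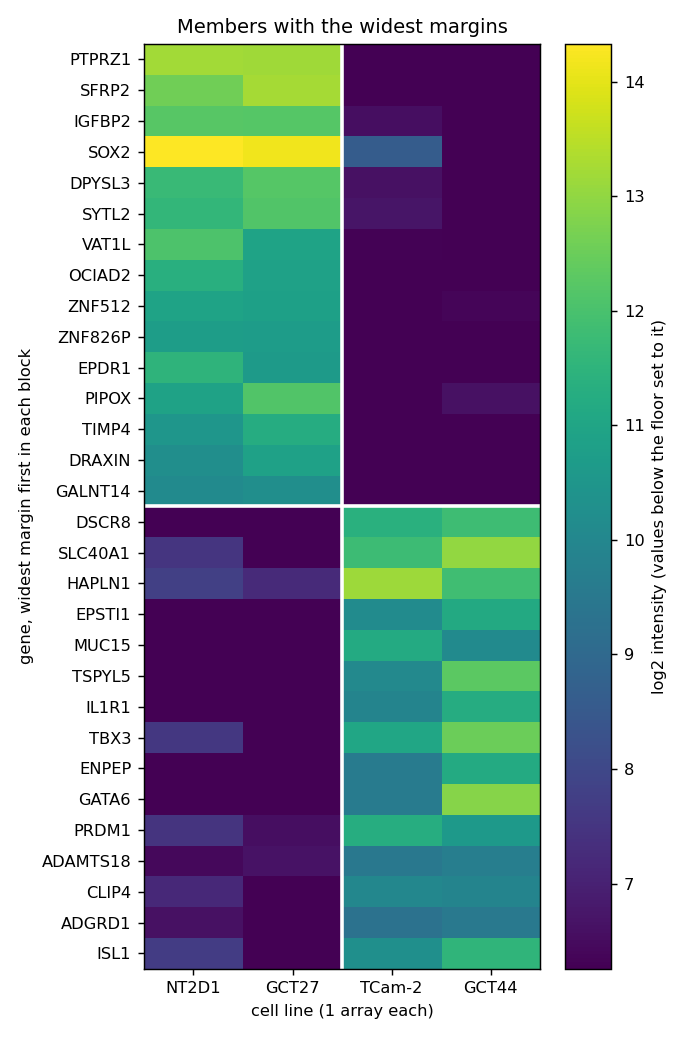
Log2 intensity of the 15 members with the widest margin in each direction (rows), in the 4 lines (columns, 1 array each), with values below the floor of 76.4 units set to it. The upper block is bright in NT2D1 and GCT27 and the lower block in TCam-2 and GCT44, and GATA6 is brighter in GCT44 (7451) than in TCam-2 (780).

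Margins were wider among the genes higher in NT2D1 and GCT27. Their median was 1.53 on the log2 scale, against 1.36 for the genes higher in TCam-2 and GCT44. A margin of at least 2, a 4-fold gap, was reached by 105 and 40 genes, 0.703% and 0.268% of the genes compared. Many members lay close to the threshold, with 177 of 378 and 123 of 210 below a margin of 1.5. Just inside it were SLC39A14 (1.00), GPRASP3 (1.01) and TMEM74 (1.01) among genes higher in NT2D1 and GCT27, and just outside PNMA2, TRIM14 and GPRASP1, each at 0.99. Among genes higher in TCam-2 and GCT44, ZBTB41 (1.00), KLF6 (1.00) and COMMD3 (1.01) lay just inside, and H2BC6 (1.00 after rounding), ENTPD6 and PET117 (0.99 each) just outside.

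**Figure D2:**
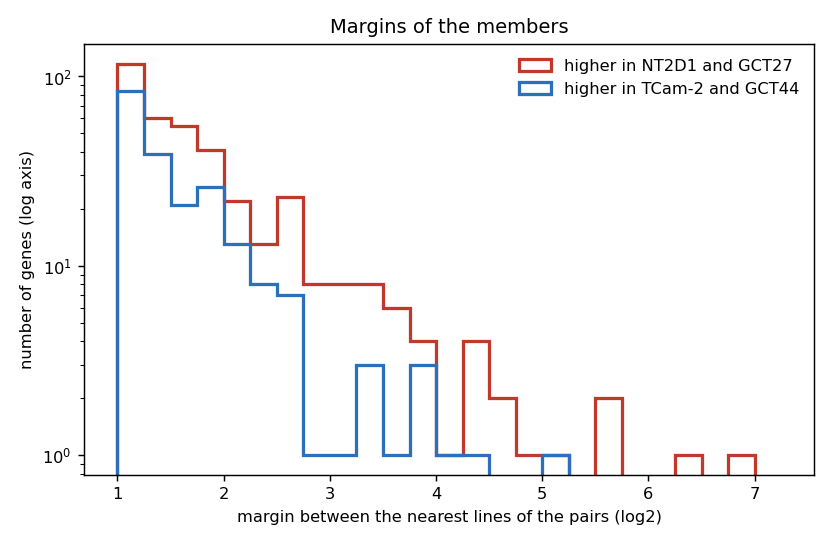
Number of members (log axis) by margin between the nearest lines of the pairs (log2), for genes higher in NT2D1 and GCT27 and for genes higher in TCam-2 and GCT44. Both distributions fall off from the threshold of 1, and the widest margins are 6.94 and 5.12.

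The way the lower lines lay differed between the directions. Of the 378 genes higher in NT2D1 and GCT27, 117 had TCam-2 and GCT44 both below the floor, 123 had 1 of them below it and 138 had neither. Of the 210 genes higher in TCam-2 and GCT44, 32 had NT2D1 and GCT27 both below the floor, 35 had 1 and 143 had neither. The median intensity of the first set was 734 in NT2D1 and 718 in GCT27, against 102 in TCam-2 and 63.7 in GCT44. The median of the second set was 267 in NT2D1 and 240 in GCT27, against 1161 in TCam-2 and 1457 in GCT44. Many genes of the second set were therefore still above the floor in the lines where they were lower. Genes with both lower lines below the floor have no order between those lines. Among the others of the first set, TCam-2 was the nearer of the lower lines for 171 genes and GCT44 for 90. In the second set NT2D1 was the nearer for 92 genes and GCT27 for 86.

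Lines of the same pair were not alike for every member. Over the 378 genes higher in NT2D1 and GCT27, these lines lay within 1 of each other on the log2 scale for 282 genes (74.6%, against 79.2% of all genes compared), and 22 differed by at least 2. EDIL3, an integrin ligand of the matrix, had 683 in NT2D1 and 16985 in GCT27, against 248 in TCam-2 and 42.6 in GCT44. RARRES2, which encodes the adipokine chemerin, ran the other way with 3375 in NT2D1 and 180 in GCT27, against 8.34 in TCam-2 and 12.5 in GCT44. GAL, a neuropeptide gene, had 1536 in NT2D1 and 15967 in GCT27, against 339 in TCam-2 and 92.3 in GCT44. Over the 210 genes higher in TCam-2 and GCT44, 150 lay within 1 between those lines (71.4%, against 72.7% of all genes compared). FOXA2, a pioneer factor of endoderm, had 2.83 in NT2D1 and 4.77 in GCT27, against 259 in TCam-2 and 6631 in GCT44. The actin-bundling protein LCP1 had 79.6 in NT2D1 and 203 in GCT27, against 453 in TCam-2 and 5887 in GCT44. EDIL3, RARRES2 and LCP1 were named after their values were seen, for their wide spread inside a pair. The other bright EDIL3 probe set fell short of the rule, with a margin of 0.002.

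**Figure D3:**
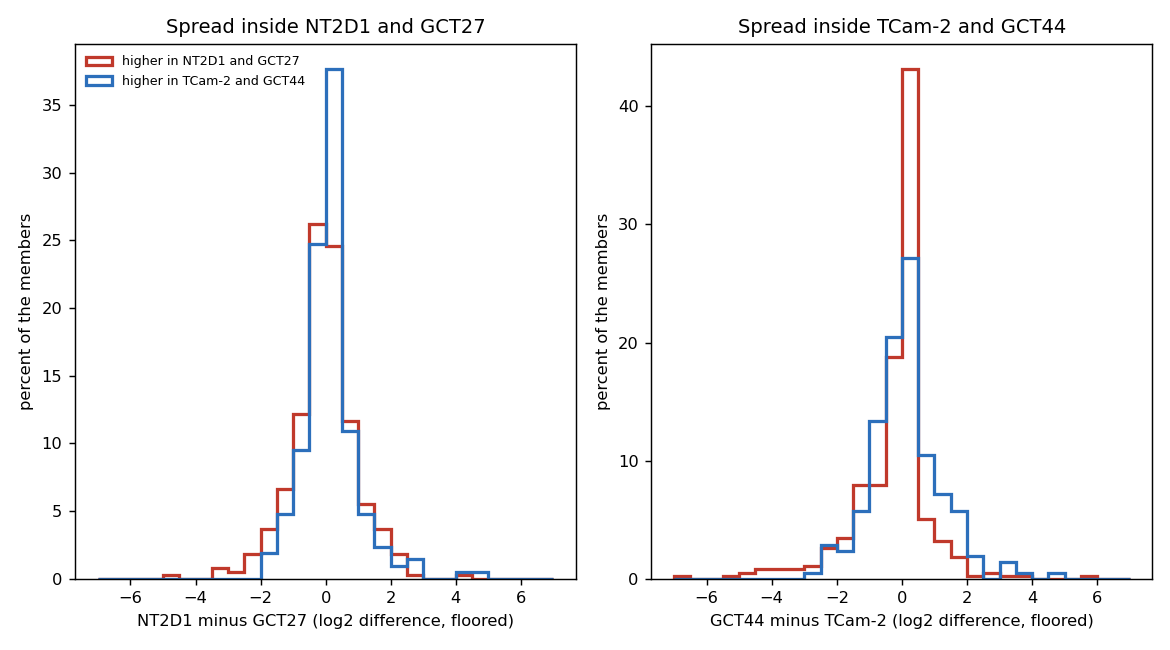
Percent of the members by the log2 difference inside a pair (floored values), NT2D1 minus GCT27 on the left and GCT44 minus TCam-2 on the right, for both sets of members. Within 1 of zero lie 74.6% (left) and 74.9% (right) of the genes higher in NT2D1 and GCT27, and 82.9% (left) and 71.4% (right) of those higher in TCam-2 and GCT44.

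Other probe sets of the same genes, which the choice of members did not use, gave a second reading on the same arrays. Of the 378 genes higher in NT2D1 and GCT27, 161 had no other probe set, 86 had only dim ones and 131 had at least 1 bright enough to show a 2-fold gap. For 73 of these 131 genes another probe set met the rule the same way. Of their 208 bright probe sets 102 met it (49.0%), 77 separated the pairs by less, 29 overlapped and 0 separated the pairs the opposite way. Over all 9610 such probe sets of the genes compared, 1.93% met the rule in that direction. Of the 210 genes higher in TCam-2 and GCT44, 66 had no other probe set, 40 had only dim ones and 104 had a bright one. Another probe set met the rule for 44 of these, and 60 of 156 bright probe sets did (38.5%, against 1.53% of all such probe sets). A further 72 separated the pairs by less, 24 overlapped and 0 went the opposite way. Probe sets of a gene share its RNA and its arrays, so these shares describe how far the readings of a gene go together.

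**Figure D4:**
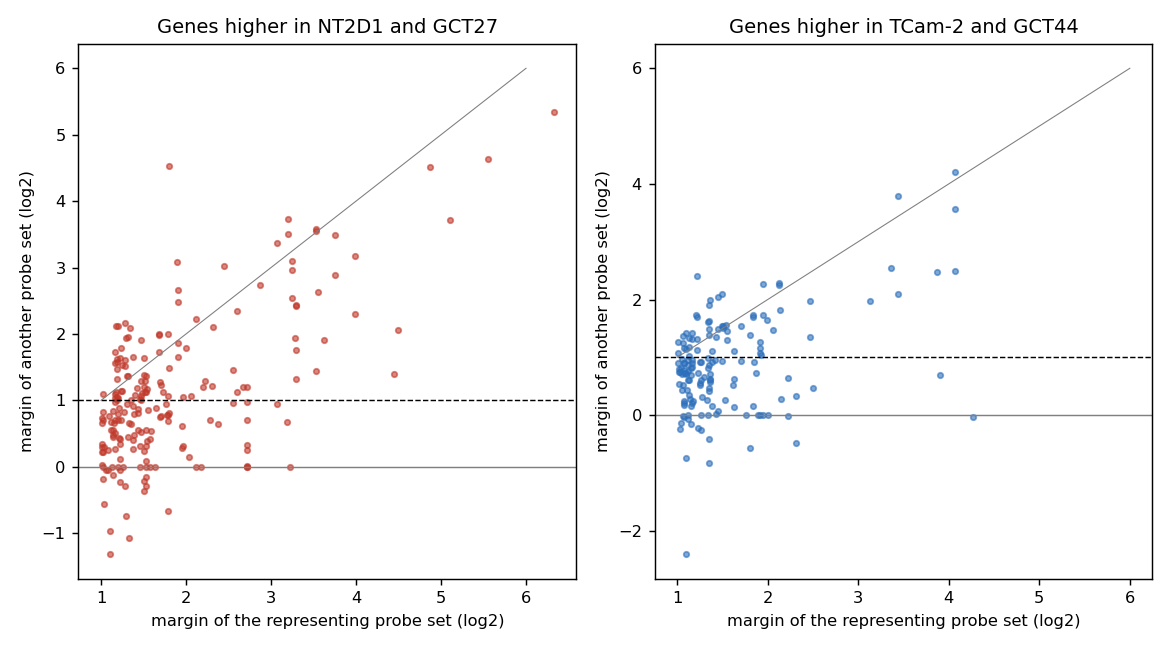
Margin (log2) of each other bright probe set of a member against the margin of the probe set that represented its gene, for genes higher in NT2D1 and GCT27 (left, 208 probe sets) and in TCam-2 and GCT44 (right, 156). The dashed line marks the threshold of 1, which 102 and 60 probe sets reach, and the diagonal marks equal margins.

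Gene lists of developmental pathways were then counted, against shares of 2.53% higher in NT2D1 and GCT27 and 1.41% higher in TCam-2 and GCT44 over all genes. The median difference between the pair means, NT2D1 and GCT27 minus TCam-2 and GCT44, was 0.01 over all genes on the log2 scale. Embryonal carcinoma and primed pluripotency genes held 13 of 27 higher in NT2D1 and GCT27, 0 lower and 14 short of the rule, with a median of 2.14. Every list was written with earlier results of these lines known, so the counts and directions are no independent evidence. This list also holds SOX2. Lists share genes, with PTPRZ1 here and in the neural list, and FGF2 and FGF4 here and in the FGF list. THY1, a surface antigen of human pluripotent cells, had 1668 in NT2D1 and 2334 in GCT27, against 124 in TCam-2 and 30.2 in GCT44, 13.5-fold. USP44, a deubiquitinase, was 9.69-fold higher and GAL 4.53-fold. The other bright GAL probe set did not separate the pairs. DNMT3B, the de novo DNA methyltransferase of early embryos, had 11360 in NT2D1 and 23760 in GCT27, against 2841 in TCam-2 and 2377 in GCT44. The pairs did not overlap, and the gene had no other probe set.

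Further members of that list were FGF2 (3.87-fold), the sialomucin PODXL (3.68-fold), TNFRSF8, which encodes the embryonal carcinoma marker CD30 (3.11-fold), the repressor FOXD3 (at least 2.34-fold) and FGF4 (2.03-fold). TNFRSF8 was dim throughout, with 304 in NT2D1 and 360 in GCT27, against 97.8 in TCam-2 and 77.4 in GCT44. The antisense gene FOXD3-AS1 was higher as well, at least 6.22-fold, and how the probe sets keep the strands apart was not tested. Genes of this list short of the rule included OTX2, with 9043 in NT2D1 and 750 in GCT27, against 892 in TCam-2 and 9762 in GCT44.

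In each direction 5% of the core and shared pluripotency genes met the rule, against 2.53% and 1.41% of all genes. Of 20 compared, SOX2 was higher in NT2D1 and GCT27, KLF2 was lower and 18 were short of the rule, with a median of 0.65. NANOG had 13322 in NT2D1 and 22428 in GCT27, against 22390 in TCam-2 and 2.29 in GCT44. LIN28A had 30531 in NT2D1 and 21142 in GCT27, against 14828 in TCam-2 and 17340 in GCT44. TCam-2 lay between NT2D1 and GCT27 for NANOG, and LIN28A was bright in every line. POU5F1, which encodes OCT4, had no probe set assigned to it alone and was not analysed here. KLF2 had 84.6 in NT2D1 and 66.7 in GCT27, against 245 in TCam-2 and 364 in GCT44.

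Of 14 SOX family genes compared SOX2 and SOX11 were higher in NT2D1 and GCT27, 0 were lower and 12 were short of the rule, with a median of 0.81. SOX11, a factor of neural progenitors, had 1339 in NT2D1 and 217 in GCT27, against 60.2 in TCam-2 and 54.5 in GCT44, at least 2.84-fold, and its 2 other probe sets met the rule. SOX3, of the same SOX subgroup as SOX2, had 701 in NT2D1 and 190 in GCT27, against 116 in TCam-2 and 44.2 in GCT44, a margin of 0.71.

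Neural and neuroectoderm genes held 12 of 35 higher in NT2D1 and GCT27 and 0 lower, with 23 short of the rule and a median of 1.10. Besides PTPRZ1 and DPYSL3, GAP43, a growth cone protein, had 3264 in NT2D1 and 1560 in GCT27, against 71.9 in TCam-2 and 172 in GCT44, 9.09-fold. Its other bright probe set did not meet the rule. The netrin receptor UNC5D was at least 8.72-fold higher. The neurofilament genes NEFM (at least 5.29-fold) and NEFL (2.60-fold), the progenitor filament NES (3.91-fold) and the membrane protein GPM6B (3.75-fold) were higher too. NES had 2259 in NT2D1 and 1715 in GCT27, against 439 in TCam-2 and 252 in GCT44. BEX1 (3.36-fold), ELAVL2 (2.55-fold), an RNA-binding protein of neurons, and LRRN1 (2.31-fold) complete the 12 with SOX11. The other bright ELAVL2 probe set fell short, with a margin of 0.64. PAX6, an eye and forebrain factor, had 85.3 in NT2D1 and 56.5 in GCT27, against 62.8 in TCam-2 and 31.4 in GCT44, with 85.3 alone above the floor.

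FGF ligands, receptors and ERK feedback genes held 7 of 22 higher in NT2D1 and GCT27 and 0 lower, with a median of 0.98. They covered the ligands FGF2 and FGF4, the binding protein FGFBP3 (5.30-fold), the receptor FGFR1 (2.88-fold) and the feedback inhibitor IL17RD (5.85-fold). The target factors ETV4 (3.31-fold) and ETV5 (2.24-fold) were higher as well. IL17RD had 7324 in NT2D1 and 8625 in GCT27, against 1252 in TCam-2 and 1086 in GCT44. For FGFR1 2 of 6 other bright probe sets met the rule, and for ETV5 0 of 3 did. The other bright FGF2 probe set fell short, with a margin of 0.61. The other 15 genes of the list were short of the rule. Among them DUSP6, an ERK phosphatase, had 6375 in NT2D1 and 75.5 in GCT27, against 744 in TCam-2 and 10955 in GCT44.

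**Figure D5:**
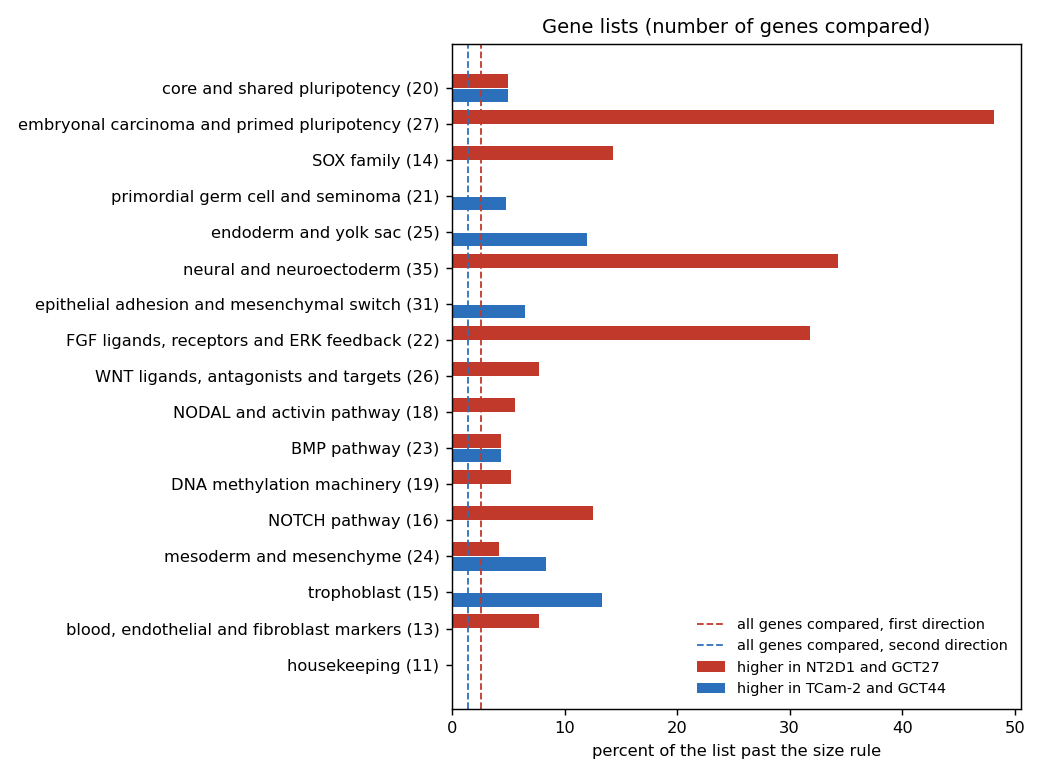
Percent of each gene list past the size rule, higher in NT2D1 and GCT27 or higher in TCam-2 and GCT44, with the number of genes compared in brackets. Dashed lines mark the shares over all genes, 2.53% and 1.41%, and embryonal carcinoma (48.1%), neural (34.3%) and FGF (31.8%) lists reach farthest.

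Of 21 primordial germ cell and seminoma genes PRDM1 alone was higher in TCam-2 and GCT44 (4.76%, against 1.41% of all genes). In that list 0 were lower and 20 were short of the rule. The median was -0.17, or 0.11 with arrays scaled to the spiked-in controls. TFAP2C had 1901 in NT2D1 and 2442 in GCT27, against 20557 in TCam-2 and 72.3 in GCT44. PRAME and TCL1A were bright in TCam-2 alone. LIFR, a cytokine receptor, fell just short with 401 in NT2D1 and 533 in GCT27, against 1056 in TCam-2 and 4190 in GCT44.

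Endoderm and yolk sac genes held 3 of 25 higher in TCam-2 and GCT44 and 0 lower, with a median of -0.70. These were GATA6, FOXA2 (at least 3.39-fold) and GATA3 (3.25-fold). GATA3, a factor of trophectoderm and other epithelia, had 1806 in NT2D1 and 283 in GCT27, against 5874 in TCam-2 and 17360 in GCT44. The apolipoprotein gene APOA2 was bright in GCT44 alone. It had 20.6 in NT2D1 and 66.6 in GCT27, against 89.2 in TCam-2 and 30689 in GCT44. GATA4 had 13.4 in NT2D1 and 25.6 in GCT27, against 70.5 in TCam-2 and 104 in GCT44, of which 104 alone lay above the floor, although its 1 other bright probe set met the rule as higher in TCam-2 and GCT44.

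Trophoblast genes held 2 of 15 higher in TCam-2 and GCT44 and 0 lower, GATA3 and HAND1, with a median of -1.28. HAND1, a factor of trophoblast and extraembryonic mesoderm, had 68.0 in NT2D1 and 18.6 in GCT27, against 568 in TCam-2 and 399 in GCT44, at least 5.22-fold. Of 24 mesoderm and mesenchyme genes TBX3 and HAND1 were higher in TCam-2 and GCT44 and POSTN, a matrix protein, was higher in NT2D1 and GCT27 (at least 2.09-fold). The median of that list was -0.05, or 0.15 with arrays scaled to the spiked-in controls.

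BMP pathway genes held 1 gene in each direction of 23, with a median of -0.87. ID1, a direct BMP target that blocks differentiation factors, had 5810 in NT2D1 and 5372 in GCT27, against 21099 in TCam-2 and 20052 in GCT44, 3.45-fold. The BMP antagonist NOG had 905 in NT2D1 and 302 in GCT27, against 4.04 in TCam-2 and 59.8 in GCT44, at least 3.95-fold higher in NT2D1 and GCT27. The ligand BMP4 overlapped between the pairs, with 797 in NT2D1 and 237 in GCT27, against 222 in TCam-2 and 1344 in GCT44. Of 18 NODAL and activin genes GDF3 was higher in NT2D1 and GCT27 and 0 were lower, with a median of 0.04. GDF3, a TGF-beta ligand of pluripotent cells, had 5915 in NT2D1 and 16726 in GCT27, against 334 in TCam-2 and 543 in GCT44, 10.9-fold. That median was -0.01 with arrays centred on the median.

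WNT genes held 2 of 26 higher in NT2D1 and GCT27, SFRP2 and WNT5B (at least 2.90-fold), and 0 lower, with a median of 0.07. NOTCH genes held 2 of 16 higher in NT2D1 and GCT27, HES6 (4.48-fold) and HEY2 (2.34-fold), and 0 lower, with a median of 0.24. HES6, a bHLH factor of neural differentiation, had 939 in NT2D1 and 793 in GCT27, against 44.8 in TCam-2 and 177 in GCT44. Epithelial and mesenchymal genes held 2 of 31 higher in TCam-2 and GCT44, the keratin KRT19 (2.41-fold) and the desmosomal protein DSP (2.14-fold), and 0 lower, with a median of -0.63. Both lost the call with arrays scaled to the spiked-in controls, where the margins were 0.92 and 0.55. CDH1, which encodes E-cadherin, cut across the pairs with 580 in NT2D1 and 14524 in GCT27, against 17193 in TCam-2 and 5.77 in GCT44.

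Of 19 genes of the DNA methylation machinery DNMT3B was the only one past the rule, with a median of -0.24, or 0.04 with arrays scaled to the spiked-in controls. DNMT1, the maintenance enzyme, had 5532 in NT2D1 and 4335 in GCT27, against 2171 in TCam-2 and 3283 in GCT44. The demethylating enzyme TET1 had 2232 in NT2D1 and 4951 in GCT27, against 12664 in TCam-2 and 1309 in GCT44. None of 11 housekeeping genes met the rule. Their median was -0.05, or 0.14 after quantile normalization and 0.24 with arrays scaled to the spiked-in controls, where the median of all genes was 0.23.

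Markers of blood, endothelium and fibroblasts had 13 genes compared, of which THY1 was higher in NT2D1 and GCT27 and 0 lower. Their summed intensity over 16 genes with a probe set was 4921 in NT2D1 and 4576 in GCT27, against 4462 in TCam-2 and 4822 in GCT44. Without THY1, itself a member, the sum was 3253 in NT2D1 and 2242 in GCT27, against 4338 in TCam-2 and 4792 in GCT44, higher in TCam-2 and GCT44. The part of these markers in the results was not tested. Between 7 and 9 of the 16 lay below the floor in each line, and the defining T cell gene CD3E had 54.7 in NT2D1 and 51.4 in GCT27, against 61.4 in TCam-2 and 88.4 in GCT44.

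Gene families by symbol were counted as well. HOX cluster genes held 4 of 24 higher in TCam-2 and GCT44 and 0 lower, with a median of -0.55. HOXB7 had 45.7 in NT2D1 and 40.4 in GCT27, both below the floor, against 421 in TCam-2 and 717 in GCT44, at least 5.51-fold, and its 2 other bright probe sets met the rule. HOXC6 (4.52-fold), HOXB3 (3.42-fold) and HOXC9 (at least 2.17-fold) were the others. Long non-coding RNA genes held 18 of 739 higher in NT2D1 and GCT27 and 4 higher in TCam-2 and GCT44, 2.44% and 0.541%. Zinc finger genes with ZNF symbols held 8 and 5 of 433, and solute carriers 8 and 9 of 290. For ZNF genes these are 1.85% and 1.15%, and for solute carriers 2.76% and 3.10%. Collagen genes held 1 and 0 of 35, protocadherins 2 and 0 of 30, keratins 0 and 1 of 14, histone genes 0 and 1 of 43, and MAGE, GAGE, SSX and CTAG genes 0 and 0 of 15.

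Members were counted by chromosome, as the RefSeq gene table places them. Over all genes compared 2.53% were higher in NT2D1 and GCT27 and 1.41% higher in TCam-2 and GCT44. The X chromosome held 32 of the genes higher in NT2D1 and GCT27, 5.84% of its 548 genes compared, and 3 higher in TCam-2 and GCT44, 0.547%. Chromosome 3 held 38 (4.51% of 843) and chromosome 7 held 30 (4.27% of 702) higher in NT2D1 and GCT27. Chromosome 18 held 10 genes higher in TCam-2 and GCT44, 4.41% of 227, and 2 higher in NT2D1 and GCT27. Chromosome 8 held 18 (3.30% of 545) and chromosome 5 held 22 (3.22% of 683) higher in TCam-2 and GCT44. Each of these also held 16 higher in NT2D1 and GCT27. Germ cell tumour lines carry many chromosome gains and losses, and the part of copy number in these counts was not tested.

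A RefSeq promoter was found for 284 genes higher in NT2D1 and GCT27, 159 higher in TCam-2 and GCT44 and 11927 of all genes compared. A window was called CpG-rich with at least 55% GC and an observed over expected CpG ratio of at least 0.6. This held for 166 promoters of genes higher in NT2D1 and GCT27 (58.5%), 115 of those higher in TCam-2 and GCT44 (72.3%) and 66.4% of all. The median number of CpG dinucleotides in the 250 bases was 17.5, 22 and 20 in that order. Genes higher in NT2D1 and GCT27 thus had the fewest CpG sites before their starts.

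A SOX core of either form stood in 54 promoters of genes higher in NT2D1 and GCT27 (19.0%), 19 of those higher in TCam-2 and GCT44 (11.9%) and 14.6% of all. The octamer core stood in 12 (4.23%), 4 (2.52%) and 2.87%, and the PRDM1 core in 13 (4.58%), 7 (4.40%) and 3.40%. The TATA box stood in 28 (9.86%), 13 (8.18%) and 6.42%. A SOX core together with an octamer core stood in 6 promoters of genes higher in NT2D1 and GCT27 (2.11%), 2 of those higher in TCam-2 and GCT44 (1.26%) and 0.570% of all. The 6 genes were SOX2, PIPOX, HES6, ABLIM1, CD1D and SEL1L3, and the 2 were HAPLN1 and LYPD6B. Matches on both strands were counted and could overlap one another. These shares are descriptions of few genes.

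The arrays were close in median intensity, though slightly higher in 1 pair. The medians were 77.4 in NT2D1 and 79.3 in GCT27, against 73.6 in TCam-2 and 75.4 in GCT44. The GCT44 array had the highest 3'/5' ratio for ACTB, 4.21 against 2.49 to 2.97 on the others, while its GAPDH ratio of 1.04 lay within 0.898 to 1.09. The split of 378 and 210 genes, 64.3% of them higher in NT2D1 and GCT27, was 536 and 121 (81.6%) with arrays scaled to the spiked-in hybridization controls. That scaling moved the median difference of all genes to 0.23. The split was 348 and 249 (58.3%) with arrays centred on the median. With the floor at the 70th percentile of all values NOG, ETV4, WNT5B, SOX11, HEY2, POSTN, HAND1, FOXA2 and KLF2 no longer met the rule. Without the GCT44 array 963 and 1012 genes met the rule, with 376 of the 378 and 207 of the 210 among them. Leaving out an array cannot narrow the margin of a given probe set, so members stay under the rule. These counts therefore do not show how far the members depend on the GCT44 array.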

How the data were processed

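RNA of 4 cell lines was hybridized to 1 array each. The deposited intensity values, 1 per probe set for 54675 probe sets, are linear, and the mean after trimming 2% from each end was near 500.1 on every array, as after scaling to a common target; no source used here states that step. Per the submitters' processing notes RMA was used, with no version, although RMA usually gives log2 values. Log2 was taken here (Python 3.11.15, numpy 2.4.6, pandas 2.3.3). Where several probe sets were listed with the same gene and no other, the brightest by mean log2 over the arrays stood for it. Of 41097 single-gene probe sets 6 control sets were left out, and 41037 had a gene ID in the RefSeq table. This gave 19775 genes, of which 4849 never reached 76.4 units, the median of all values. Values below that floor were set to it, so a fold is written "at least" where both lower lines were below it. The files name no genome build.

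No test was run, because each line has 1 array and the pairs were formed on a measured gene; no p-value is given. The number of arrays limits the precision. Members, 17 gene lists, 9 families, 5 motifs and the naming rule were chosen with earlier results of these data known. Named are the 15 genes of widest margin per direction, up to 4 members per list and direction, the genes next to the threshold, and SOX2, PRDM1, SOX17, POU5F1 and NANOG; the remaining called members of the embryonal carcinoma, neural, FGF and HOX sets were named to complete their counts, and other genes short of the rule were picked after their values were seen. Another 14 settings were tried. Protein sequences were not used here.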

Additional observations from a re-analysis of the deposited data

How the results depend on the processing

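Between 895 and 1105 genes were higher in NT2D1 and GCT27, and between 589 and 1059 higher in TCam-2 and GCT44, when 1 line was left out, since 1 value of a pair then no longer limits the gap. At least 366 of the 378 and 207 of the 210 genes stayed members there. Leaving out a line cannot narrow the margin of a given probe set, so this was fixed by the rule. A gene could drop out only where another probe set came to stand for it. With pair means in place of the nearest lines 1330 and 1182 genes met the threshold, and with a margin of 2, 105 and 40. With no floor the counts were 608 and 320, and with a floor at the 70th percentile 198 and 144, all of them members before. Scaled to the spiked-in controls 121 genes were higher in TCam-2 and GCT44, all of them members before, and 536 in NT2D1 and GCT27. With the median over probe sets 276 and 158 genes met the rule, of which 243 and 116 were members. Without probe sets that match several transcripts 316 and 164 did, with linear means 389 and 216, with quantile normalization 374 and 215. Of 718 margins of 52 named genes under these settings, 36 fell short and in 0 the pairs separated the opposite way. A member on the same probe set cannot turn with a line left out, pair means, a margin of 2 or another floor. The 0 was therefore largely fixed in advance. With the median over probe sets GAP43 (0.74), WNT5B, POSTN, TBX3 and FOXA2 (0.00 each) and KRT19 (-1.10) fell short. DPYSL3 (0.00), POSTN (0.00), GATA3 (0.94) and KLF2 (0.10) did so without probe sets that match several transcripts, a setting in which 42 of the 52 genes had a value. With the floor at the 70th percentile NOG (0.26), ETV4 (0.14), HEY2 (0.31), HAND1 (0.66), FOXA2 (0.04), and WNT5B, SOX11, POSTN and KLF2 (0.00 each) fell short. KRT19 (0.92) and DSP (0.55) lost the call under spike-in scaling, as did 14 genes at a margin of 2. FOXA2 (0.00) also did without GCT44. The causes were not tested. No paired analysis was possible because these are 4 different lines with 1 array each, and their common replicate number pairs nothing.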

Other observations

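Further gene groups were looked at after the values were seen. The metallothioneins are a family, while the other groups join genes picked from several families. Over all genes compared 2.53% were higher in NT2D1 and GCT27 and 1.41% in TCam-2 and GCT44. Metallothioneins, small metal-binding proteins of near-identical sequence, held 4 of 9 higher in NT2D1 and GCT27 and 0 lower, with a median difference of 3.04 on the log2 scale. MT2A had 16744 in NT2D1 and 18028 in GCT27, against 7509 in TCam-2 and 575 in GCT44, and MT1X had 13040 in NT2D1 and 18064 in GCT27, against 5489 in TCam-2 and 377 in GCT44. MT1H, short of the rule at a margin of 0.13, had 6029 in NT2D1 and 7084 in GCT27, against 5524 in TCam-2 and 172 in GCT44. For MT2A, MT1X and MT1H the wide gap was to GCT44, and TCam-2 lay closer to NT2D1 and GCT27. MT1M, below the floor in TCam-2 and GCT44, did not follow this. Which member gave the signal is uncertain. Of 22 ARMCX, GPRASP, BEX, TCEAL and NAP1L genes of the X chromosome, 7 were higher in NT2D1 and GCT27 and 0 lower, beside 5.84% of all X chromosome genes compared. ARMCX2 had 9567 in NT2D1 and 9483 in GCT27, against 1407 in TCam-2 and 69.1 in GCT44, while BEX3 had 25696 in NT2D1 and 25332 in GCT27, against 7673 in TCam-2 and 34933 in GCT44.

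Of 19 genes of cytokine receptors, STAT3 feedback and NF-kB, 5 were higher in TCam-2 and GCT44 and 2 in NT2D1 and GCT27. The 5 were IL1R1, NFKBIA, SOCS3, IL6ST and IL10RB, and the 2 were IL1RAP and STAT3. IL6ST, the shared receptor chain of the interleukin 6 family, had 867 in NT2D1 and 1100 in GCT27, against 20290 in TCam-2 and 4155 in GCT44, and 3 of its 4 other bright probe sets met the rule. SOCS3, a feedback inhibitor of that pathway, had 396 in NT2D1 and 260 in GCT27, against 1965 in TCam-2 and 2097 in GCT44, but 0 of 2 other bright probe sets met the rule. STAT3 itself had 1267 in NT2D1 and 3750 in GCT27, against 623 in TCam-2 and 474 in GCT44, with 0 of 3. Of 19 HLA and peptide loading genes 4 were higher in NT2D1 and GCT27, among them HLA-C (2.84-fold), and HLA-DRB1 was lower. HLA probe sets read a polymorphic family, and for HLA-C 0 of 3 other bright probe sets met the rule.

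Of 6637 probe sets above the floor that are listed with several genes or none, 71 met the rule as higher in NT2D1 and GCT27 (1.07%) and 49 as higher in TCam-2 and GCT44 (0.738%). The widest gap belonged to a probe set listed for XAGE1A and XAGE1B together, cancer-testis antigen genes, with a margin of 7.19 higher in TCam-2 and GCT44. This is wider than the 6.94 of PTPRZ1. The widest in the other direction, at 3.49, is listed for GLYR1 and SEPTIN6. MGMT, a repair enzyme known as a methylation target in tumours, was named singly after its values were seen. It had 76.3 in NT2D1 and 6.20 in GCT27, against 831 in TCam-2 and 450 in GCT44, and had no other probe set.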
